A study of Mus musculus with 8 samples.

Results

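The comparison concerns 1 culture of mouse neurons, here called the WT-coded culture, set against 3 cultures that carry clone codes. Neurons were differentiated from CGR8 embryonic stem cells, a mouse line, and taken on day 8 in vitro. The 8 libraries are 4 of footprints, the fragments that ribosomes protect, and 4 of total RNA. They are matched here by culture code, and whether both assays of 1 code used the same dish is not stated. Every culture had been treated with cycloheximide at 100 µg/ml for 5 minutes, which halts ribosomes. The WT-coded culture is wild type and gave 2 of the 8 libraries. The other 6 libraries came from the wild-type clone c_14_23, the double-knockout clone c_16 and a double-knockout clone coded c_1 in the footprints and c_11_1 in the RNA, where double knockout means Eif4g1 and Eif4g3. The labels do not say what the codes stand for, and that c_1 and c_11_1 name 1 clone is inferred from their shared replicate number. The WT-coded culture was selected on measured values, because its 2 libraries stood apart from the rest, so all differences below are descriptions of sizes and of their repetition in the second assay, with no test and no p-value. Of the clone-coded cultures 1 is wild type and 2 are double knockout, so code and genotype partly overlap, and differences from c_14_23 alone are differences within 1 genotype.

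Neurons made from embryonic stem cells arise through neural progenitors, and such cultures also hold dividing progenitors, glia and cells of other lineages. Mesenchymal cells are known for the fibrillar collagens and the contractile proteins they make, and basement membranes are sheets of laminin, nidogen and type IV collagen that underlie epithelia and vessels. Footprints report the mRNA that ribosomes occupy, and total RNA reports the mRNA that is present. In bulk libraries such as these, more cells of a type and more RNA per cell cannot be told apart.

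Footprint libraries held 10490535 to 19753419 estimated counts and RNA libraries 14762047 to 44786643. Levels are given as CPM, counts scaled to a common library size, summed over the transcripts of a gene, and differences are log2 CPM of the WT-coded culture minus the mean of the 3 clones. Eif4g1, a scaffold of translation initiation and a target of the knockout, stood at 264, 309, 154 and 294 CPM in footprints of the WT-coded culture, c_14_23, c_16 and c_1, and at 273, 283, 123 and 300 CPM in RNA. It was low in c_16 only, and the second double-knockout clone lay near both wild-type cultures, so the gene sum does not mark that library's label. Eif4g3, its paralog, lay between 154 and 177 CPM in all footprints and between 101 and 136 CPM in all RNA libraries. The sources used here do not give which part of either gene was deleted.

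On the leading principal component, which held 56.8% of the variance in footprints and 57.8% in RNA, the WT-coded culture scored 36.9 in footprints, and the clones scored between -13.5 and -9.9. In RNA it scored 30.6, against -12.6 to -8.4. In footprints 526, 644 and 593 genes lay at least 2-fold apart between the WT-coded culture and c_14_23, c_16 and c_1, whereas 163 to 283 did between any pair of clones. In RNA the same counts were 348, 382 and 416, against 119 to 135 between clones.

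A gene was counted as higher or lower where the WT-coded culture lay beyond all 3 clones and at least 2-fold from their mean. Of 13035 genes with a mean of at least 0.5 CPM in both assays, 370 (2.84%) were higher and 142 (1.09%) lower in footprints. In RNA 252 (1.93%) were higher and 69 (0.529%) lower. In both assays 198 genes (1.52%) were higher and 46 (0.353%) lower. The genes higher in both made up 53.5% of the footprint count and 78.6% of the RNA count, and those lower in both made up 32.4% and 66.7%. Of the 172 genes that were higher in footprints alone, 161 had an RNA difference of the same sign. Of the 96 that were lower in footprints alone, 78 did. Across the 13035 genes the differences of the 2 assays correlated with Pearson's r of 0.74 and Spearman's rho of 0.60. Genes are not independent replicates, and the libraries of the 2 assays are paired by culture code alone. Against the wild-type clone c_14_23 alone, 154 of the 198 higher genes and 26 of the 46 lower genes were also at least 2-fold apart in both assays. Of these genes 48 of the 198 and 21 of the 46 had a mean of at least 5 CPM in each assay, and with a mean count of at least 50 required in each assay the counts were 80 higher and 27 lower. Some genes passed the filter only through the WT-coded libraries, 117 in all, of which 38 are among the 198 and none among the 46.

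**Figure D1:**
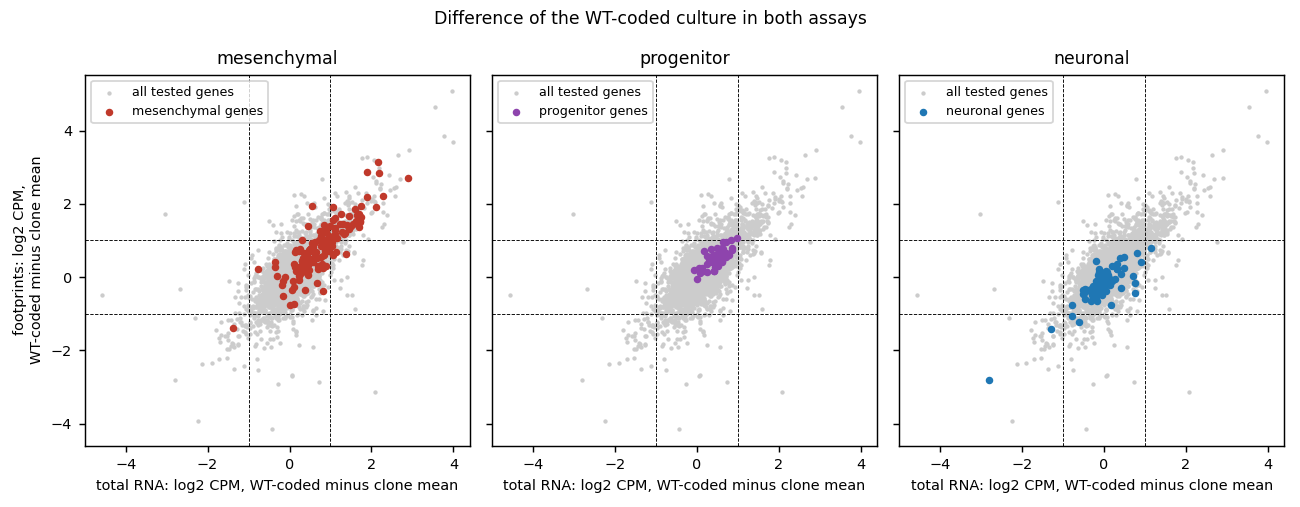
Each point is a gene; the x axis gives the log2 CPM difference of the WT-coded culture from the mean of the 3 clones in total RNA and the y axis the same in footprints, with dashed lines at 2-fold. Mesenchymal genes (left) lie mostly in the upper right, progenitor genes (middle) lie above 0 but mostly inside the dashed lines, and neuronal genes (right) gather near and below 0.

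The 139 tested mesenchymal genes, gathered over 9 lists of matrix, marker and contractile genes, had a median difference of 0.77 in footprints and 0.74 in RNA, where all tested genes had medians of -0.04 and -0.01. Of these genes 37 (26.6%) were higher in both assays and 1 (0.719%) was lower, where 1.52% and 0.353% of all tested genes were. Positive differences in both were found in 121. Lamc3, Fap, Foxf1, Foxf2, Tcf21 and Cnn1 passed the filter only through the WT-coded libraries, and Lamc3, Foxf1 and Foxf2 are among the 37. With the filter set on the mean of the 3 clones the medians were 0.73 and 0.69. The 53 progenitor genes had a median of 0.52 in each assay, with 51 positive in both and none beyond 2-fold in both. The 136 neuronal genes had medians of -0.24 and -0.11, with 90 negative in both, none counted as higher and 2 counted as lower. Of all 13035 genes 4015 were positive and 5238 negative in both assays, and proteasome subunits, a reference set, had medians of -0.14 and -0.09 with 25 of 29 negative. Against c_14_23 alone the medians were 0.82 and 0.79 for mesenchymal genes, 0.43 and 0.39 for progenitor genes, and -0.28 and -0.11 for neuronal genes.

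**Figure D2:**
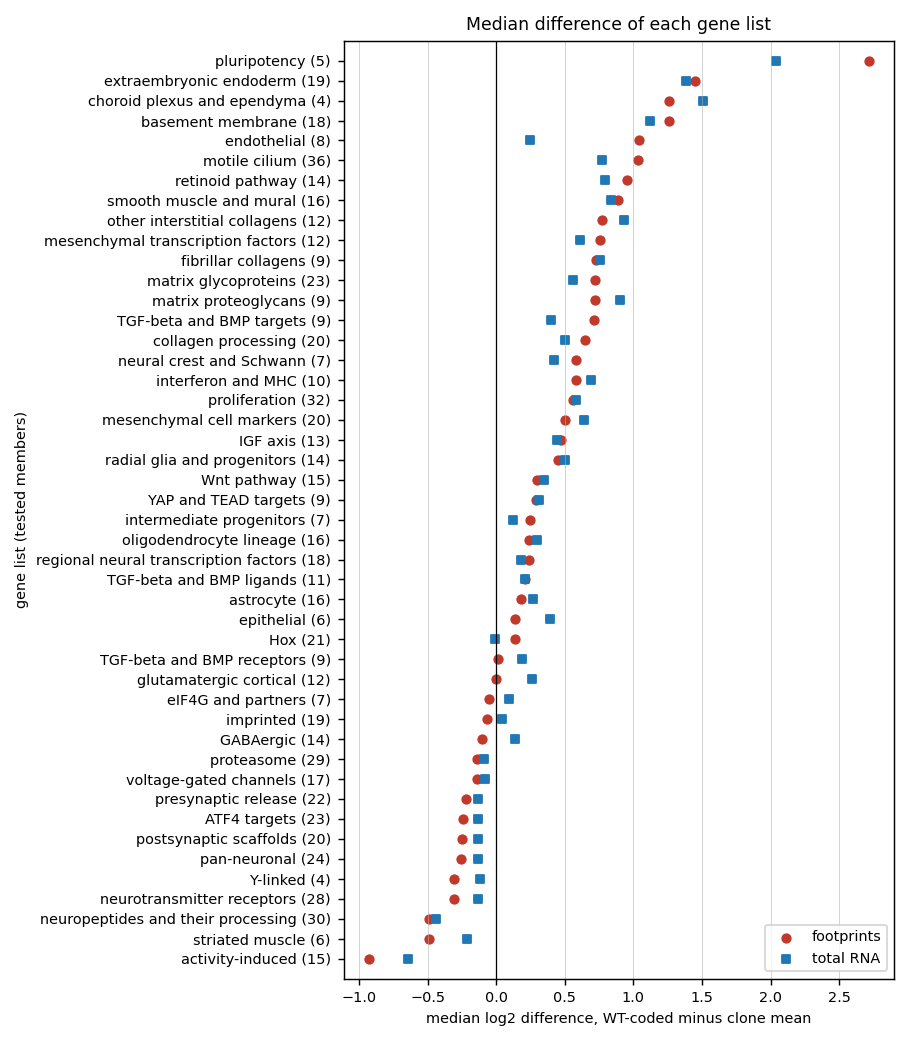
Median log2 difference of the WT-coded culture from the clone mean for each gene list with tested members (their number in parentheses), with circles for footprints and squares for total RNA. Pluripotency genes plot at 2.72 and 2.04, but 3 of their 5 members passed the filter only through the WT-coded libraries; basement membrane genes stand at 1.26 and 1.12, and activity-induced genes stand lowest at -0.93 and -0.64.

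Basement membrane genes, grouped here with the mesenchymal lists, had the highest median among these lists, 1.26 in footprints and 1.12 in RNA. Lama1, Lamb1, Lamc1, Col4a1 and Col4a2 among them are also in the list of extraembryonic endoderm genes described below. Of 18 tested members 18 had positive differences in both assays and 10 were counted as higher in both. Lama1, the laminin alpha chain of early embryonic basement membranes (GRCm38, chromosome 17, 67697259 to 67822647), stood at 216 CPM in footprints of the WT-coded culture and at 49.7, 57.3 and 75.7 CPM in c_14_23, c_16 and c_1. In RNA it stood at 151 CPM against 46.9, 40.3 and 66.3 CPM. The WT-coded value was 3.55-fold the clone mean in footprints and 2.96-fold in RNA, above all 3 clones in each assay. Lamb1, its beta partner, stood at 138 CPM against 32.9, 46.9 and 47.6 in footprints and at 83.4 CPM against 20.5, 26.1 and 32.3 in RNA. Nid1, the linker nidogen, stood at 56.1 CPM against 17.5, 25.2 and 12.8 in footprints and at 26.9 CPM against 7.91, 8.76 and 7.93 in RNA. The type IV collagen chain Col4a1 differed by 1.44 in footprints and 1.55 in RNA on the log2 scale, and the gamma chain Lamc1 differed by 1.45 and 1.23. The chain Lamc3 was scarce everywhere, at 2.12 CPM in footprints of the WT-coded culture and at most 0.521 CPM in those of the clones. Lamc3 passed the filter only through the WT-coded libraries, and the other 17 members had medians of 1.24 and 1.12 with 9 higher in both. Agrn, the proteoglycan agrin, which neurons also make, differed by 0.22 and 0.18 and was not counted. The summed level of the list was 1326 CPM in WT-coded footprints against 487 to 608 in the clones, and 1024 CPM against 419 to 529 in RNA. The clones did not follow the order of the fibrillar collagens throughout. In RNA of c_14_23, c_16 and c_11_1 the sums were 470, 419 and 529 CPM, where fibrillar collagens had 227, 260 and 129. In footprints the sums were 487, 608 and 560 CPM, where fibrillar collagens had 329, 528 and 195.

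Fibrillar collagens, the load-bearing rods of connective tissue, had medians of 0.73 and 0.76 over 9 tested members, of which 3 were higher in both assays. Col1a2 (chromosome 6, 4504814 to 4541544) stood at 144 CPM in WT-coded footprints and at 52.4, 85.0 and 29.4 CPM in c_14_23, c_16 and c_1. In RNA it stood at 103 CPM against 36.4, 46.9 and 17.1 CPM. Its partner Col1a1 stood at 266 CPM against 114, 194 and 55.4 in footprints and at 66.6 CPM against 26.8, 37.4 and 14.0 in RNA. Col3a1 stood at 279 CPM against 108, 184 and 62.0 in footprints and at 241 CPM against 92.3, 114 and 39.3 in RNA. In all 3 genes and both assays the order was the WT-coded culture, c_16, c_14_23 and then c_1, and as ratios c_16 and c_1 lay further apart than the WT-coded culture and c_16 did. The 5 genes whose log2 CPM over the 8 libraries, centred within each assay, tracked Col1a1 most closely of 10608 genes were Col3a1 (r = 0.99), Col1a2 (0.99), Dcn (0.987), Emilin1 (0.986) and Arhgap29 (0.986).

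The remaining matrix lists followed with similar medians. Other interstitial collagens had medians of 0.77 and 0.93 with 4 of 12 higher in both, among them Col8a2, at 6.43 CPM against 1.16, 1.56 and 1.27 in footprints. Matrix proteoglycans had medians of 0.72 and 0.90 with 3 of 9 higher in both. Decorin, Dcn, which binds collagen fibrils, stood at 128 CPM against 43.2, 64.6 and 21.7 in footprints and at 65.1 CPM against 23.9, 37.2 and 10.1 in RNA. Osteoglycin, Ogn, stood at 5.26 CPM against 0.406, 2.29 and 0.363 in footprints, with c_16 again the clone nearest to the WT-coded culture. Matrix glycoproteins had medians of 0.72 and 0.56 with 5 of 23 higher in both, among them Thbs2 and Fbln5. Spp1, the secreted phosphoprotein osteopontin, was the 1 mesenchymal gene counted as lower, at 1.17 CPM against 2.61, 3.23 and 3.93 in footprints. Genes of collagen processing had medians of 0.65 and 0.50 with 2 of 20 higher in both, Lox, the collagen crosslinking oxidase, and Pcolce, an enhancer of procollagen cleavage.

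Smooth muscle and mural genes had medians of 0.89 and 0.84, or 0.86 and 0.84 without Cnn1, which passed the filter only through the WT-coded libraries. Of the 16 tested members 14 were positive and 4 higher in both assays. Among these Myl9 and Cnn2 hold the CArG box, the element bound by serum response factor, in the 300 bases that run from 250 bases before to 50 after the gene start, and they are shown because both genes were higher together. The motif was searched on both strands and is in capitals, and the sequences are those of RefSeq on GRCm38.p6.
Myl9, chr2:156775214-156775513, plus strand: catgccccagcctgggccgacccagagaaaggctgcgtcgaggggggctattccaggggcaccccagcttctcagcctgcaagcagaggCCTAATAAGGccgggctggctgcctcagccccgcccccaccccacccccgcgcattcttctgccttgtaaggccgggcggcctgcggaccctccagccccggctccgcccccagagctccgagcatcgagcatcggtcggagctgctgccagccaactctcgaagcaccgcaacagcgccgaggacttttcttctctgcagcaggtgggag
Cnn2, chr10:79988350-79988649, plus strand: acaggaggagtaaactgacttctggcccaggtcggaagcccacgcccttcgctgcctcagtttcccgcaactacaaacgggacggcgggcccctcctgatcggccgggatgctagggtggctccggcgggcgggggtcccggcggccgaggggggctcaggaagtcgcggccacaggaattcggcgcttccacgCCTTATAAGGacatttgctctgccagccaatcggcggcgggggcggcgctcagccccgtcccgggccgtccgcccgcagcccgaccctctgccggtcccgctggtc
The match began 161 bases before the start of Myl9 and 56 before that of Cnn2. Of 17 listed genes with a promoter entry, 2 held the motif, where 1.63% of 32851 promoters did, and a match is a description of the letters and not a site. Tagln and Acta2, which were also higher in both assays, are not among the genes with a match.

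Tagln, which encodes the actin-binding protein transgelin (chromosome 9, 45929619 to 45936058), had the largest mean increase over both assays among genes with a mean of at least 5 CPM. It stood at 50.7 CPM in WT-coded footprints and at 5.57, 9.80 and 3.39 CPM in c_14_23, c_16 and c_1, which is 8.12-fold the clone mean. In RNA it stood at 13.7 CPM against 3.58, 3.72 and 1.95 CPM, which is 4.45-fold. Acta2, smooth muscle actin, stood at 97.6 CPM against 21.4, 35.7 and 12.6 in footprints and at 19.0 CPM against 4.96, 7.09 and 3.56 in RNA. Myl9, a myosin light chain, stood at 13.9 CPM against 4.18, 4.90 and 5.08 in footprints and at 7.22 CPM against 3.58, 3.34 and 3.27 in RNA. Calponin 2, Cnn2, stood at 17.5 CPM against 5.80, 5.42 and 5.99 in footprints and at 9.23 CPM against 4.46, 3.98 and 4.19 in RNA. In each of these 4 genes the WT-coded library lay above all 3 clones in both assays. Des, the muscle filament desmin, stood at no more than 0.208 CPM in any footprint library. Striated muscle genes had medians of -0.49 and -0.21 over 6 tested of 15 matched members, with summed levels of 15.2 to 20.1 CPM in footprints. Gata4 passed the filter only through the WT-coded libraries, and the medians of the other 5 were -0.53 and -0.57.

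Transcription factors of mesenchyme had medians of 0.76 and 0.61, with 10 of 12 tested members positive and 4 higher in both assays. Against c_16 alone the medians were 0.20 and -0.07. Foxf1, Foxf2 and Tcf21 passed the filter only through the WT-coded libraries, and the other 9 had medians of 0.33 and 0.47 with 2 higher in both. Twist1 stood at 3.29 CPM against 1.45, 1.77 and 1.09 in footprints and at 6.34 CPM against 2.07, 3.09 and 2.30 in RNA, and Tbx18, Foxf1 and Foxf2 also stood apart at no more than 3.17 CPM. Markers of mesenchymal cells had medians of 0.50 and 0.64, or 0.48 and 0.63 without Fap, which passed the filter only through the WT-coded libraries. In both assays 2 of 20 were higher. Of these Pdpn, podoplanin, stood at 91.4 CPM against 45.2, 44.6 and 39.2 in footprints and at 37.9 CPM against 17.6, 15.7 and 19.0 in RNA.

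**Figure D3:**
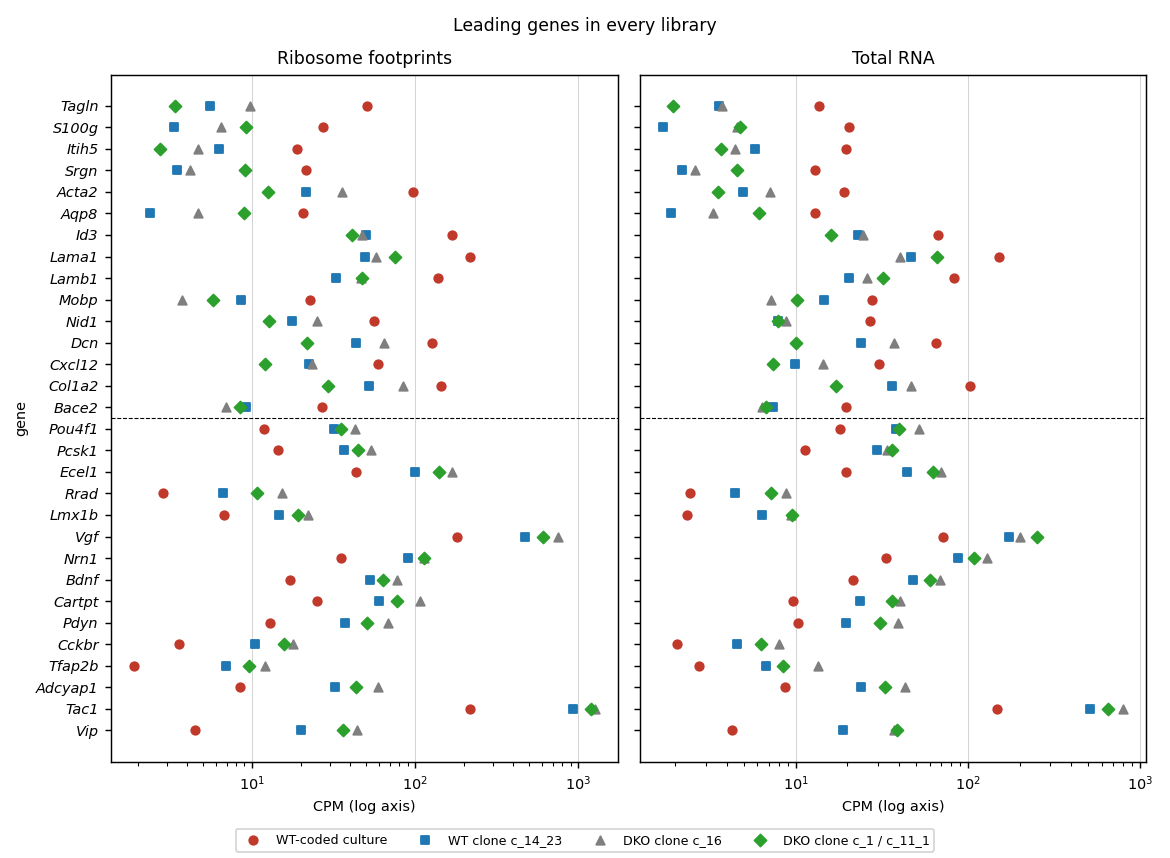
CPM on a log axis of the 15 genes with the largest increase (above the dashed line) and the 15 with the largest decrease (below it) in every library, footprints on the left and total RNA on the right, with 1 symbol per culture. The WT-coded culture lies beyond all 3 clones in each gene and assay, as the choice of these genes requires; in the 15 genes with a decrease c_14_23 is the clone nearest to it in both assays.

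Signalling genes with roles in mesenchyme differed in part. Of TGF-beta and BMP ligands 2 of 11 were higher in both assays, Bmp5 and Bmp6, and the list's medians were 0.21 in each assay. Bmp6 stood at 10.4 CPM against 3.31, 2.40 and 2.0 in footprints and at 9.71 CPM against 2.82, 2.55 and 2.30 in RNA. Of the receptors 1 of 9 was higher, Tgfbr2, at 9.35 CPM against 3.89, 4.48 and 2.42 in footprints. Target genes of the pathway had medians of 0.71 and 0.40, or 0.61 and 0.22 without Smad6, which passed the filter only through the WT-coded libraries. Of these 9 target genes 1 was higher in both. That gene, Id3, which blocks basic helix-loop-helix factors, stood at 168 CPM against 50.2, 47.6 and 41.3 in footprints and at 66.8 CPM against 23, 24.7 and 16.0 in RNA. In the insulin-like growth factor axis, 12 of 13 members were positive in both assays and 2 were higher, with medians of 0.47 and 0.44. Igf2, the fetal growth factor, stood at 251 CPM against 74.4, 148 and 50.9 in footprints and at 86.0 CPM against 23.5, 76.3 and 17.7 in RNA, where c_16 came close to the WT-coded culture. Targets of YAP and TEAD, the effectors of Hippo signalling, had medians of 0.29 and 0.31 with 9 of 9 positive and none beyond 2-fold in both.

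The retinoid pathway, which synthesises and clears retinoic acid, had medians of 0.95 and 0.79 with 13 of 14 members positive and 4 higher in both assays. Aldh1a2, the enzyme that makes retinoic acid in mesenchyme, stood at 12.0 CPM against 3.60, 5.00 and 2.30 in footprints and at 6.94 CPM against 1.19, 2.59 and 0.804 in RNA. Cyp26a1, the enzyme that degrades it, stood at 7.52 CPM against 1.51, 1.25 and 2.30 in footprints and at 6.30 CPM against 1.07, 1.31 and 2.35 in RNA. The binding protein Crabp2 and the reductase Dhrs3 were also higher in both. Crabp2 passed the filter only through the WT-coded libraries, and the other 13 members had medians of 0.95 and 0.68 with 3 higher in both.

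From the clone mean, progenitor genes differed less than mesenchymal genes but more evenly. Against c_16 alone the progenitor medians were 0.56 and 0.64, where the mesenchymal medians were 0.48 and 0.57. Against c_1 alone they were 0.50 and 0.51, where the mesenchymal medians were 0.94 and 0.83. Proliferation genes had medians of 0.56 and 0.58, and 32 of 32 were positive in both assays, yet none reached 2-fold in both. Among them Cenpf, a centromere protein, stood at 16.9 CPM against 11.5, 8.76 and 8.84 in footprints and at 18.4 CPM against 11, 9.72 and 9.42 in RNA. Radial glia and progenitor genes had medians of 0.45 and 0.50 with 13 of 14 positive. Nes, the progenitor filament nestin, stood at 110 CPM against 55.7, 47.6 and 55.3 in footprints and at 63.3 CPM against 33.3, 25.6 and 38.3 in RNA, just past and just short of 2-fold. Genes of intermediate progenitors had medians of 0.25 and 0.12. Astrocyte genes had medians of 0.18 and 0.27 and oligodendrocyte genes 0.24 and 0.30, with 3 of 32 glial genes higher in both. Of these Mlc1, an astrocyte membrane protein, stood at 141 CPM against 77.3, 58.8 and 74.9 in footprints, and Mag, a myelin protein, stood at 41.9 CPM against 21.3, 11.9 and 14.3. The myelin gene Mobp, among the leading genes, stood at 22.6 CPM against 8.58, 3.75 and 5.81 in footprints and at 27.7 CPM against 14.7, 7.17 and 10.2 in RNA.

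General neuronal genes were lower by small amounts. Pan-neuronal genes had medians of -0.26 in footprints and -0.13 in RNA, with 21 of 24 negative in both assays and none counted in both. Their summed level was 13482 CPM in WT-coded footprints against 15442 to 16638 in the clones, and 8640 CPM against 8887 to 9990 in RNA. Tubb3, neuronal tubulin, stood at 2415 CPM in WT-coded footprints against 2881, 2344 and 2669, so it lay within the range of the clones. Genes of presynaptic release had medians of -0.22 and -0.13 with 20 of 22 negative, and neurotransmitter receptors had medians of -0.31 and -0.13 with 21 of 28 negative. Voltage-gated channels had medians of -0.14 and -0.08 with 10 of 17 negative. Postsynaptic scaffolds had medians of -0.25 and -0.13 with 11 of 20 negative, among the most negative Dlg4, which encodes PSD-95, at 199 CPM against 246, 251 and 250 in footprints and at 122 CPM against 155, 177 and 172 in RNA. In these lists the footprint difference was the more negative of the 2 assays, as it was over all tested genes. The median of footprints minus RNA lay between -0.20 (neurotransmitter receptors) and -0.04 (presynaptic release) in these lists. It was -0.04 over all tested genes and for proteasome subunits, and -0.16 for eIF4G and its partners.

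The labelled identity is cortical glutamatergic neurons, and 12 of the 18 listed genes of that identity passed the filter. The summed footprint level of the 18 was 220 CPM in the WT-coded culture and 330, 381 and 353 CPM in the clones. Slc17a6 alone held 74.7 CPM of this sum in the WT-coded culture and 171, 235 and 198 CPM in the clones. Most of the gap between the sums therefore lay in this gene. Slc17a7, the vesicular glutamate transporter of cortex, stood at no more than 0.219 CPM in any library. The list of glutamatergic cortical genes had medians of 0.00 and 0.26 over 12 tested members, with 5 positive and 2 negative in both assays, and GABAergic genes had medians of -0.10 and 0.14 over 14. Slc17a6, the glutamate transporter of subcortical and immature neurons, was abundant and was lower in the WT-coded culture, at 74.7 CPM against 171, 235 and 198 in footprints and at 76.1 CPM against 163, 220 and 177 in RNA. The WT-coded level was below all 3 clones by 2.69-fold and 2.46-fold of their mean. The GABA synthesis genes Gad1 and Gad2 and the vesicular transporter Slc32a1 differed by -0.11 to 0.17 in either assay. Of transmitter-type genes, Slc17a6 and the peptide gene Vip were the 2 counted as lower in both.

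Neuropeptide genes and genes of peptide processing were a large group among the genes that were lower, in a list put together after their values were seen. Of 30 tested members 26 were negative in both assays and 8 were lower in both, with medians of -0.49 and -0.44. Tac1, the precursor of substance P (chromosome 6, 7554879 to 7565834), stood at 216 CPM in WT-coded footprints and at 931, 1265 and 1192 CPM in c_14_23, c_16 and c_1. In RNA it stood at 148 CPM against 516, 801 and 652 CPM, so the clone means were 5.23-fold and 4.44-fold higher. Vip, vasoactive intestinal peptide, stood at 4.45 CPM against 19.9, 43.9 and 36.4 in footprints and at 4.25 CPM against 18.9, 37.4 and 38.8 in RNA. Its relative Adcyap1, the PACAP precursor, stood at 8.40 CPM against 32.2, 59.3 and 43.5 in footprints and at 8.63 CPM against 23.9, 43.3 and 33.0 in RNA. The opioid precursor Pdyn stood at 13.0 CPM against 37.4, 68.5 and 50.9 in footprints and at 10.3 CPM against 19.5, 39.1 and 30.9 in RNA. Vgf, a granule protein that neurotrophins induce, stood at 181 CPM against 474, 755 and 609 in footprints and at 71.9 CPM against 173, 200 and 251 in RNA. Cartpt, the prohormone convertase Pcsk1 and the endopeptidase Ecel1 were the other members that were lower in both. In footprints of all 8 genes c_14_23 was the clone nearest to the WT-coded culture and c_16 the farthest. Not all peptide genes took part: Npy differed by -0.29 and -0.22, and the granule protein Chga by -0.20 and -0.03. The summed level of the list was 3612 CPM in WT-coded footprints against 6125 to 7097 in the clones, and 1982 CPM against 3068 to 3447 in RNA.

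Activity-induced genes, which neurons transcribe upon depolarisation, had the lowest medians of any list, -0.93 and -0.64, with 14 of 15 negative and 5 lower in both assays. Bdnf, a neurotrophin (chromosome 2, 109674700 to 109727007), stood at 17.2 CPM against 52.7, 78.1 and 63.8 in footprints and at 21.4 CPM against 47.8, 68.7 and 60.5 in RNA. The synaptic pentraxin Nptx2 stood at 27.2 CPM against 62.0, 69.7 and 73.2 in footprints and at 20.2 CPM against 42.7, 44.4 and 48.9 in RNA. The immediate early factors Fosb, Egr4 and Nr4a1 were the other 3 counted. Fosb stood at 1.61 CPM in WT-coded RNA, 2.70 in c_14_23, 6.43 in c_16 and 4.48 in c_11_1, and its difference from c_14_23 alone was -0.79 in footprints and -0.72 in RNA. For Egr4 the difference from c_14_23 was -0.63 and -1.10. Against c_14_23 alone the list's medians were -0.63 and -0.28. Nrn1, an activity-regulated neurite protein outside the list, stood at 35.3 CPM against 91.0, 114 and 113 in footprints.

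**Figure D4:**
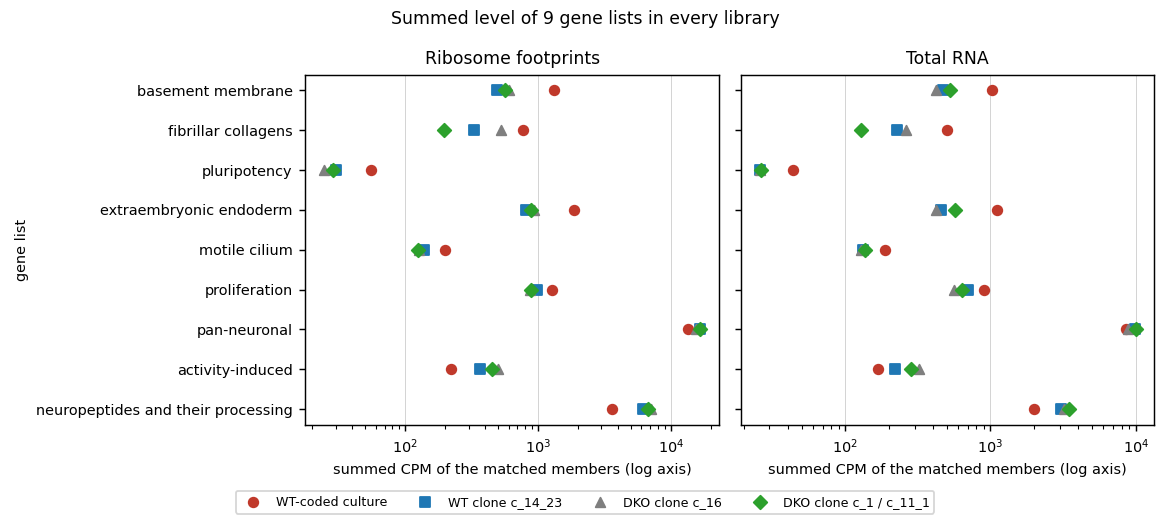
Summed CPM (log axis) of the matched members of 9 gene lists in every library, footprints on the left and total RNA on the right, with 1 symbol per culture. The WT-coded culture is the highest library in the lists from basement membrane to proliferation and the lowest in pan-neuronal, activity-induced and neuropeptide genes; fibrillar collagens spread most among the clones, from 195 to 528 CPM in footprints.

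Transcription factors that mark regions and neuron types moved in both directions. Of 18 tested regional factors 2 were higher and 4 lower in both assays. Phox2a, a factor of noradrenergic and visceral neurons, stood at 2.26 CPM against 9.11, 12.0 and 11.6 in footprints and at 1.04 CPM against 2.70, 3.56 and 3.39 in RNA. Lmx1b, which acts in dorsal spinal and serotonergic neurons, stood at 6.72 CPM against 14.7, 22.2 and 19.3 in footprints and at 2.33 CPM against 6.34, 9.44 and 9.48 in RNA. Tlx3, a selector of excitatory sensory interneurons, stood at 1.90 CPM against 6.03, 6.98 and 7.38 in footprints and at 1.57 CPM against 5.21, 5.46 and 5.28 in RNA. The sensory factor Pou4f1 stood at 11.9 CPM against 32.1, 42.7 and 35.4 in footprints and at 18 CPM against 38.2, 51.8 and 39.9 in RNA. In the opposite direction Nkx6-1, a factor of ventral progenitors, stood at 10.6 CPM against 3.19, 2.40 and 2.36 in footprints and at 5.34 CPM against 1.69, 1.41 and 1.49 in RNA. Tfap2a and Tfap2b, factors of neural crest and of dorsal inhibitory neurons, were both lower, with Tfap2b at 1.90 CPM against 6.96, 12.1 and 9.62 in footprints, while 5 of the 7 tested neural crest and Schwann genes were positive. Of 21 tested Hox genes 1 was counted, Hoxb9, which was lower at 1.83 CPM against 3.25, 7.51 and 6.23 in footprints.

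Of 12 listed pluripotency genes, which mark undifferentiated stem cells, 5 were tested, and 3 of these, Pou5f1, Zfp42 and Dppa5a, passed the filter only through the WT-coded libraries. Their differences were therefore large by selection, and the list's medians are not read. The summed level of the 11 matched members was 54.8 CPM in WT-coded footprints against 24.5 to 30.3 in the clones, and 43.7 CPM against 25.7 to 26.2 in RNA. Pou5f1, the factor Oct4, stood at 3.94 CPM in WT-coded footprints, from 54 estimated counts, and at 0.058, 0 and 0.182 CPM in c_14_23, c_16 and c_1. In RNA it stood at 2.29 CPM, from 57 counts, against 0.314, 0.0402 and 0.0574 CPM. Dppa5a, an RNA-binding protein of stem cells, stood at 11.7 CPM against 0.754, 0 and 0.424 in footprints and at 4.62 CPM against 0.126, 0.181 and 0.345 in RNA. Zfp42, the zinc finger protein Rex1, stood at 2.77 CPM against 0.290, 0.313 and 0.424 in footprints and at 1.81 CPM against 0.377, 0.281 and 0.459 in RNA. The WT-coded levels were themselves low, and the clones were near 0. Lin28a, under the filter, stood at 1.61 CPM against at most 0.116 CPM in footprints and at 2.81 CPM against at most 0.281 CPM in RNA. Esrrb differed by 0.15 and 0.24. Near-identical copies of Pou5f1 and Dppa5a exist in the genome, so their counts are uncertain.

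Some genes of other lineages were also higher. A list of extraembryonic endoderm genes, put together after values were seen and sharing Lama1, Lamb1, Lamc1, Col4a1 and Col4a2 with the basement membrane list, had medians of 1.45 and 1.38, with 18 of 19 positive and 13 higher in both assays. Of the 19, Gata4 and Ttr passed the filter only through the WT-coded libraries, and the other 17 had medians of 1.44 and 1.23 with 11 higher in both. Gata4, an endoderm and heart factor, stood at 2.19 CPM against 0.174, 0.313 and 0.363 in footprints and at 1.85 CPM against 0.188, 0.321 and 0.689 in RNA. The keratins Krt8 and Krt18 of simple epithelia stood at 9.64 and 8.62 CPM in WT-coded footprints, against at most 2.60 and 3.44 CPM in the clones. They were the 2 of 6 tested epithelial genes that were higher in both, and the list's medians were 0.14 and 0.39, or -0.15 and -0.10 against c_1 alone. Its summed footprint level was 51.4 CPM in the WT-coded culture and 52.4 in c_1. Srgn, the granule proteoglycan serglycin, stood at 21.4 CPM against 3.48, 4.17 and 9.08 in footprints and at 12.9 CPM against 2.20, 2.61 and 4.54 in RNA. The adaptor Dab2 differed by 1.68 and 1.42, and the receptor Lrp2 by 1.80 and 1.13. Amn, the amnionless protein, was the exception and was lower, by -1.91 and -1.35. S100g and Aqp8, a calcium-binding protein and a water channel, had the order of Srgn in footprints, with c_14_23 lowest of the clones and c_1 highest.

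Of 8 tested endothelial genes 3 were higher in both assays. Flt1, a VEGF receptor, stood at 8.83 CPM against 0.638, 0.625 and 0.908 in footprints and at 8.43 CPM against 0.628, 1.04 and 1.67 in RNA, and Tek and Cdh5 were the others. Pecam1 went the other way, with differences of -1.23 and -0.97, and the list's medians of 1.04 and 0.25 became -0.26 and -0.33 with a mean count of at least 50 required. Cdh5, Tek and Emcn passed the filter only through the WT-coded libraries, and the other 5 genes had medians of 0.04 and -0.20 with 1 higher in both. Choroid plexus and ependymal genes had medians of 1.26 and 1.51 over 4 tested members, of which Ttr, Aqp1 and Foxj1 were higher in both, but Ttr and Aqp1 passed only through the WT-coded libraries. A list of motile cilium genes, also put together after values were seen, had medians of 1.03 and 0.77, with 30 of 36 positive and 15 higher in both assays. Of these 36 genes 11 passed only through the WT-coded libraries, and the other 25 had medians of 0.75 in each assay with 8 higher in both. Foxj1, the master factor of motile cilia, stood at 13.5 CPM against 4.23, 5.32 and 5.02 in footprints and at 21.2 CPM against 11, 7.88 and 11 in RNA. The axonemal genes Enkur and Dnajb13 stood at 3.10-fold to 4.37-fold the clone mean over both assays. Cfap43 and Drc7 stood at 4.84-fold to 11.6-fold, but both are among the 11 that passed only through the WT-coded libraries. None of 10 microglial and blood genes passed the filter, and Tyrobp stood at 0 in all libraries.

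Among lists with other roles, interferon and MHC genes had medians of 0.58 and 0.69, with 9 of 10 positive. The membrane protein Ifitm3 stood at 81.6 CPM against 27.5, 32.0 and 27.5 in footprints and at 14.0 CPM against 4.83, 5.50 and 3.73 in RNA. Imprinted genes had medians of -0.07 and 0.04, while 4 of 19 were higher in both: Igf2, Dcn, Mest and Nnat. For Mest and Nnat the wild-type clone also lay above both double-knockout clones, with Mest at 287 CPM in WT-coded footprints, 185 in the wild-type clone and 98.8 and 85.0 in the double-knockout clones. Targets of ATF4, a factor of the amino acid response, had medians of -0.24 and -0.13, which became -0.04 and 0.08 against c_14_23 alone.

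Genes on chromosomes 8 and 11 were lower by a small amount. Relative to the median of all genes, the 717 tested genes of chromosome 8 had a median of -0.08 in footprints and -0.11 in RNA, and the 1084 of chromosome 11 had -0.08 and -0.09. Of chromosome 8 genes 72.1% lay below the all-gene median in RNA and 64.2% in footprints. For chromosome 11 the shares were 65.2% and 64.3%. Each of the 3 clones taken alone gave a value between -0.11 and -0.07. In every 20 Mb segment of either chromosome the median was negative, between -0.15 and -0.05. The other 17 autosomes lay between -0.03 and 0.04 in both assays. The 461 genes of X had medians of -0.03 and 0.00, and the 6 tested genes of Y had -0.26 and -0.11. Copy number was not measured in these data, and these 2 chromosomes were singled out after their values were seen.

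**Figure D5:**
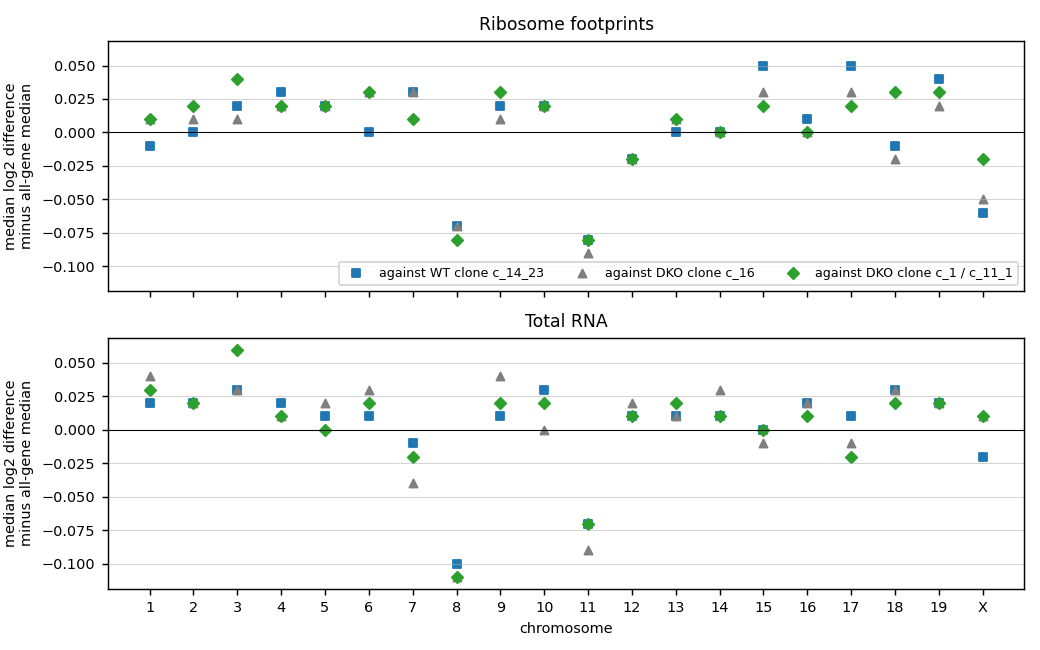
Median log2 difference of the WT-coded culture from each clone, by chromosome and relative to the median of all genes, for footprints (top) and total RNA (bottom), with 1 symbol per clone. Chromosomes 8 and 11 lie between -0.11 and -0.07 against every clone in both assays.

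Genes counted in both assays share a direction by the rule, so only the sizes of their differences can be compared between assays. Of the 198 genes higher in both, 125 had the larger difference in footprints, with medians of 1.53 in footprints and 1.44 in RNA, and of the 46 lower genes 35 did, with medians of -1.61 and -1.38. The SD of the differences over all genes was 0.43 in footprints and 0.36 in RNA. A single gene, the zinc finger gene Gm4724, was higher in footprints, at 20.4 CPM against 8.58, 1.36 and 9.38, and lower in RNA, at 2.01 CPM against 4.08, 4.54 and 4.77. It has near-identical relatives among which reads can be divided, so its values are uncertain.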

How the data were processed

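The authors deposited 1 table of kallisto estimated counts per transcript for 8 libraries. The submitters' processing notes name FastQC, Trimmomatic, Bowtie and kallisto. The sources used here give no versions, settings, genome build or transcript set. Of 60528 transcript identifiers 60483 (99.93%) matched GENCODE M21 (GRCm38); estimated counts were summed by gene, giving 18335 genes. kallisto divides reads between isoforms and similar genes, so near-identical copies are uncertain.

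Summed counts were scaled by TMM over the 8 libraries (edgeR 4.0.16, R 4.3.3) and turned into log2 CPM with a prior count of 2. Genes with a mean of at least 0.5 CPM over the 4 libraries of each assay were tested against the call rule, 13035 in all. With 1 culture against 3, singled out on the same libraries, no test was run; nothing says whether both libraries of 1 code came from 1 dish. The call rule was tested on simulated data.

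The comparison and the 44 gene lists were chosen with earlier results of these data known, and 3 further lists (neuropeptides, extraembryonic endoderm, motile cilium) after the values were seen. Named genes were the 15 with the largest mean difference in each direction among genes counted in both assays with at least 5 CPM, and, per list, up to 4 members counted in both or else the 2 with the largest difference. Other members were named after their values were seen. List symbols that matched no gene were not analysed here. Alternatives changed the scaling, filter, prior count, fold, range rule, transcripts and cultures used.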

Additional observations from a re-analysis of the deposited data

How the results depend on the processing

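No paired analysis was possible because the results come from no test. Of the 17 alternatives, 2 (edgeR's filterByExpr, and a filter on the mean of the 3 clones) were chosen after seeing the data. Counts below are in the order higher and lower in footprints, higher and lower in RNA, higher and lower in both assays. They were 909, 391, 718, 219, 526 and 138 at 1.5-fold, and 58, 13, 36, 5, 29 and 3 at 4-fold. With at least 50 counts on average in each assay they were 127, 61, 98, 34, 80 and 27, with 11326 genes tested. With no filter the first 5 were 882, 331, 579, 173 and 335, with 18335 genes. Against c_14_23 alone 28 genes were lower in both, and the progenitor median in RNA was 0.39. With total counts as the only scaling the neuronal median in footprints was -0.16. The class medians kept their sign under all 17 alternatives, and leaving out 1 clone at a time gave 187 to 214 genes higher and 40 to 65 lower in both. Changes of the fold or the range rule leave every median and difference as it was, and changes of the filter leave the differences of single genes. None of the 95 named genes counted in both assays, which were chosen for differences of at least 2-fold, changed sign. Of 61 list medians of at least 0.2 in size 2 did, the endothelial ones, at -0.26 and -0.33 with at least 50 counts on average and at -0.20 in RNA under either added filter; these drop scarce members. The filter on the clones left 160 genes higher and 50 lower in both, with mesenchymal medians of 0.73 and 0.69. Depth limits genes near 1 CPM, where 1 count is a large part of the value. With 1 culture, differences between cultures of 1 code could not be measured.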
